A study of Homo sapiens with 6 samples.

Results

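The NRF2 pathway and the antioxidant enzymes around it were followed as a list of 35 genes in cultured WM-266.4 metastatic melanoma cells whose PIR transcript had been lowered by siRNA. Its product, pirin, is a nuclear protein that binds iron. The list was set by symbol and chosen with earlier results of these data known. Each gene was read from its brightest probe set among those annotated with it alone, out of 19775 genes read in the same way. All 35 had such a probe set, and 34 were measured, meaning that the mean of at least 1 pool lay above 70.2 signal units, the median of all values. ABCC3 did not pass. Of the 34, 27 also lay above the 75th percentile of 458.4 and are called bright.

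The 3 groups were of the same line and went through the same transfection. The siPIR cells received a pool of 4 duplexes against PIR and the siCTR cells a pool of 4 non-targeting duplexes, each at 200 pmol, while NO cells received Oligofectamine with no oligonucleotide. Cells were harvested 72 h later. RNA from 3 extractions was mixed into 1 pool per group, and the target from each pool was hybridised to 2 Affymetrix HG-U133 Plus 2 arrays. The 2 arrays are repeat hybridisations of 1 pool, so n is 1 per group, the spread between them is hybridisation error only, and the number of pools limits the precision.

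NRF2, encoded by NFE2L2, is a transcription factor that is held in the cytoplasm and marked for degradation by KEAP1. Oxidants and electrophiles modify KEAP1, NRF2 then accumulates, and with small MAF proteins it binds antioxidant response elements near its target genes. The targets supply glutathione and thioredoxin, make NADPH, break down haem and quinones, and conjugate or export foreign compounds. NRF2 is regulated mostly at the protein level, so its own transcript is a poor measure of its activity.

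The core of the antioxidant response element, TGACNNNGC, was looked for on both strands in the 250 bases before each RefSeq transcription start (GRCh38.p14). Of the 26 members with an entry in the promoter table, 7 held it (KEAP1, GCLM, TXNRD1, PGD, ME1, EPHX1 and GSTP1). That is 26.9% of the members with an entry, against 13.2% of all genes in the table and 16.1% of the measured genes. Members with no entry were SLC7A11, GSR, PRDX1, PRDX6, HMOX1, AKR1B10, ABCC1, ABCC3 and SOD1. The matches are descriptions of the sequence and not binding sites. Below are 6 of these members, with 1 match each, and PIR itself. KEAP1 and TXNRD1 each had a second match, not shown, at 54 and 102 bases before a start. PIR was also searched past its start, which the members were not. Its match lies inside the transcribed part, from base 27, and so outside the 250 bases searched in the members. The 9 matched bases are in capitals, read 5′ to 3′ along the strand of the gene.
KEAP1 (chr19:10502784-10502812, minus strand): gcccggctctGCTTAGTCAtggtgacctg
GCLM (chr1:93909446-93909474, minus strand): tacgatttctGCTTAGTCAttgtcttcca
TXNRD1 (chr12:104215670-104215698, plus strand): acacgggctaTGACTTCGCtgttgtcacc
ME1 (chr6:83431170-83431198, minus strand): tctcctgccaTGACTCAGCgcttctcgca
EPHX1 (chr1:225825266-225825294, plus strand): tgagattggcTGACTTGGCaggactgtgc
GSTP1 (chr11:67583736-67583764, plus strand): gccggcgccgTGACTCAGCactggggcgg
PIR (chrX:15493289-15493317, minus strand): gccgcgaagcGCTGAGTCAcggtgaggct
KEAP1 and GCLM carry the same 9 bases, 31 and 34 bases before their starts. ME1 and GSTP1 share TGACTCAGC, at 137 and 66 bases before their starts, and PIR has its reverse complement. Those 3 windows also hold TGACTCA, the motif of AP-1 factors, which overlaps the core. The 7 measured members with a match differed between siPIR and siCTR by 0.13 to 0.75 on the log2 scale (median 0.29). The 19 with an entry and no match ran from -1.45 to 0.86 (median 0.21). Against NO the order of the medians turned, with 0.18 for the members with a match and 0.21 for those without.

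PIR was read first, as the check of the labels. The probe set for PIR gave 392 and 382 in siPIR, 13544 and 13179.9 in siCTR, and 13990.2 and 14153 in NO, that is 34.1-fold and 35.9-fold lower in siPIR. The 6 arrays had median signals of 64.2 to 74.8. Of 8 melanocyte lineage markers, 7 had a probe set of their own and all 7 were measured, with summed signals of 95250.3 to 103249 over the arrays. Of 5 fibroblast markers 3 were measured, and the summed signal of the 5, nearly all from COL1A2, was 22937 to 23873 on siPIR arrays, 14605 to 15782 on siCTR arrays and 12596 to 12706 on NO arrays. Of the other markers in that list LUM was lower in siPIR (-0.44 and -0.61), COL1A1 differed by -0.09 from siCTR and 0.71 from NO, and DCN and PDGFRB did not pass the filter. Of the leukocyte markers only CD14 was measured, higher in siPIR by 0.88 and 1.64 and called against NO, while PTPRC, CD3E and LYZ did not pass the filter. Of the keratinocyte and endothelial markers 1 and 2 were measured, and no marker with a probe set was listed at 0. For ACTB the 3′ probe set over the 5′ one, a sign of RNA integrity, gave 1.13 on both siPIR arrays and 1.23 to 1.27 on the rest. The part of these values in the results was not tested. In RNA of a whole culture, fewer cells of a type and less RNA per cell cannot be told apart.

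Most members were slightly higher in the siPIR pool, and few by much. Differences are of log2(signal + 5.4), which understates those of dim genes, and brackets after a difference hold its lowest and highest value among the 4 array pairs. Of 34 measured members, 26 had a positive difference from siCTR and 27 from NO, where 54.6% and 52.9% of all measured genes did. The median difference of the members was 0.24 from siCTR and 0.21 from NO, against 0.05 and 0.03 over all 13071 measured genes. The list was chosen with earlier results of these data known, so its counts and medians are not independent of them. Between siCTR and NO the members' median was 0.01, as was that of all measured genes. The comparisons with siCTR and with NO share the siPIR pool, so they are not independent of each other.

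A call required pools at least 2-fold apart and arrays that did not overlap between them. In siPIR against siCTR, 1 member was called higher (AKR1B10) and 1 lower (SOD2), where 3.75% and 4.26% of all measured genes were called. Against NO, 0 were higher and 1 was lower (SOD2), with 3.67% and 5.48% of all measured genes. SOD2 was thus the only member called against both controls, where 1.52% of measured genes were higher and 3.22% lower. Counts of 0 or 1 in 34 are close to these shares, and both AKR1B10 and SOD2 are dim. Of the 27 bright members 0 were called higher or lower, where 1.37% and 4% of bright genes were against siCTR, 2.15% and 4.29% against NO, and 0.919% and 3.41% against both.

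At 1.5-fold with the same demand on the arrays, 6 members were higher than siCTR (AKR1B10, AKR1C3, EPHX1, GSTM3, GPX1 and PRDX1) where 10.7% of measured genes were, and 1 was lower (10.1%). Against NO, 7 were higher (HMOX1, ME1, AKR1C3, OSGIN1, ABCC2, EPHX1 and GSTM3; 11.9%) and 1 lower (12.9%). AKR1C3, EPHX1 and GSTM3 were higher than both controls at this size, where 6.37% of measured genes were. SOD2 was again the only member lower than both (7.55%). When size was left out, 23 members were higher and 6 lower than siCTR without overlap, where 36.6% and 29.5% of measured genes were. Against NO there were 25 and 5, where 37.7% and 32.7% were. Further, 21 of 34 members had both siPIR arrays above all 4 control arrays, where 28.4% of measured genes did. Another 4 (GCLC, TXN, CAT and SOD2) had both below, where 23.2% did. Among bright members the counts were 19 and 3 of 27, where 34% and 29.1% of bright genes did. Most of these differences were under 1.5-fold.

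**Figure D1:**
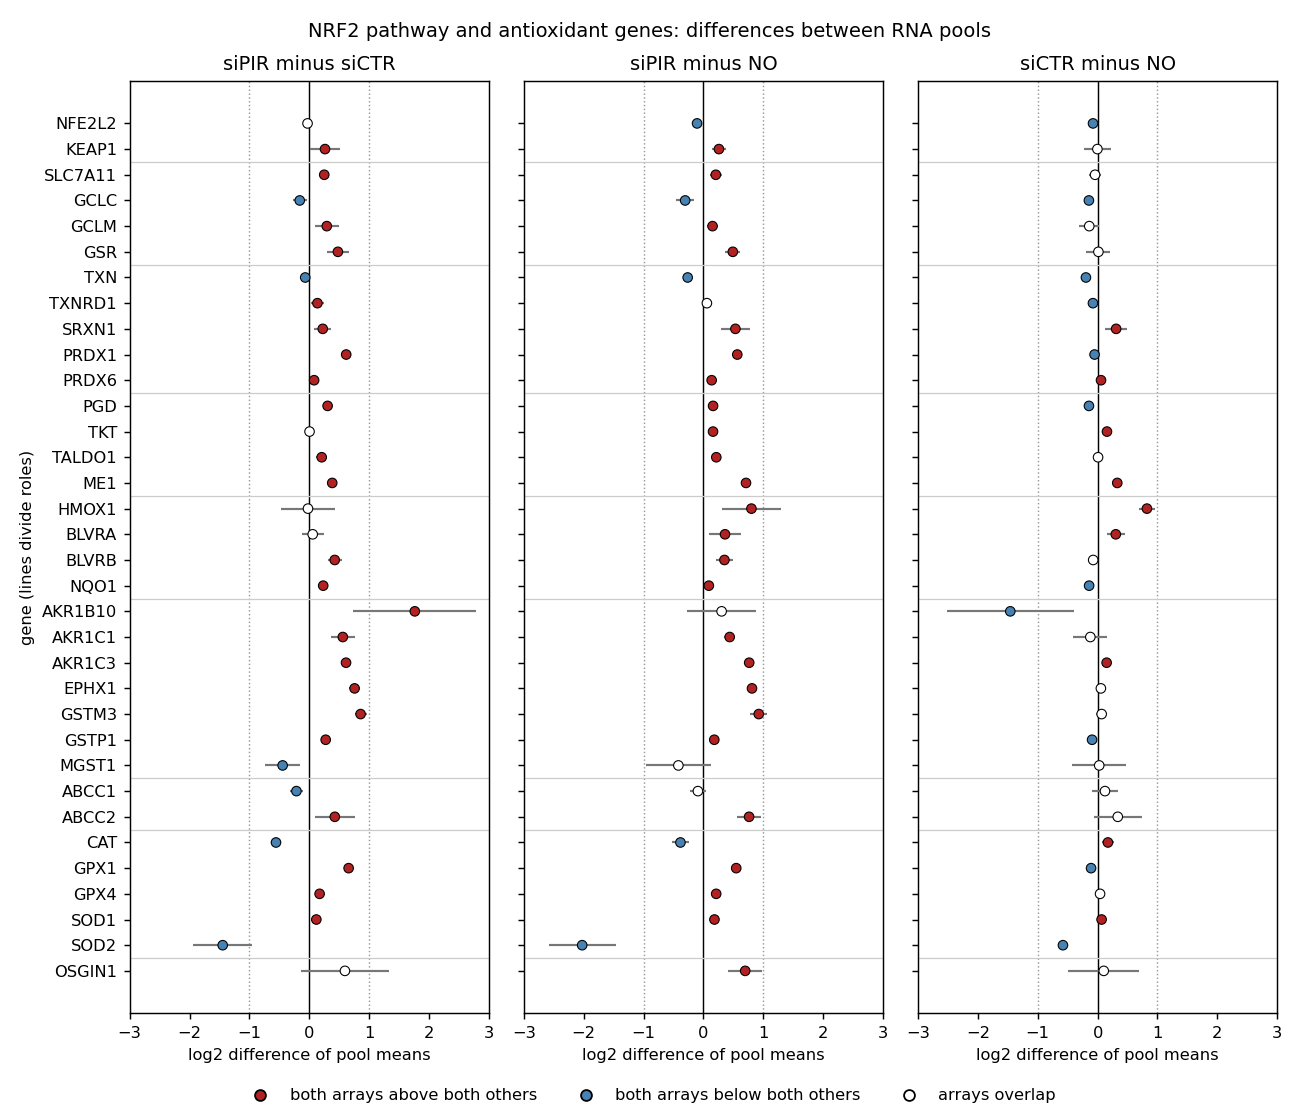
Log2 difference of pool means (points) for each of the 34 measured members, with the range over the 4 pairs of arrays (lines), for siPIR minus siCTR, siPIR minus NO and siCTR minus NO. Most points in the first 2 panels lie to the right of 0 and within 1 unit of it, with SOD2 at -1.45 and -2.03 on the left.

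**Figure D2:**
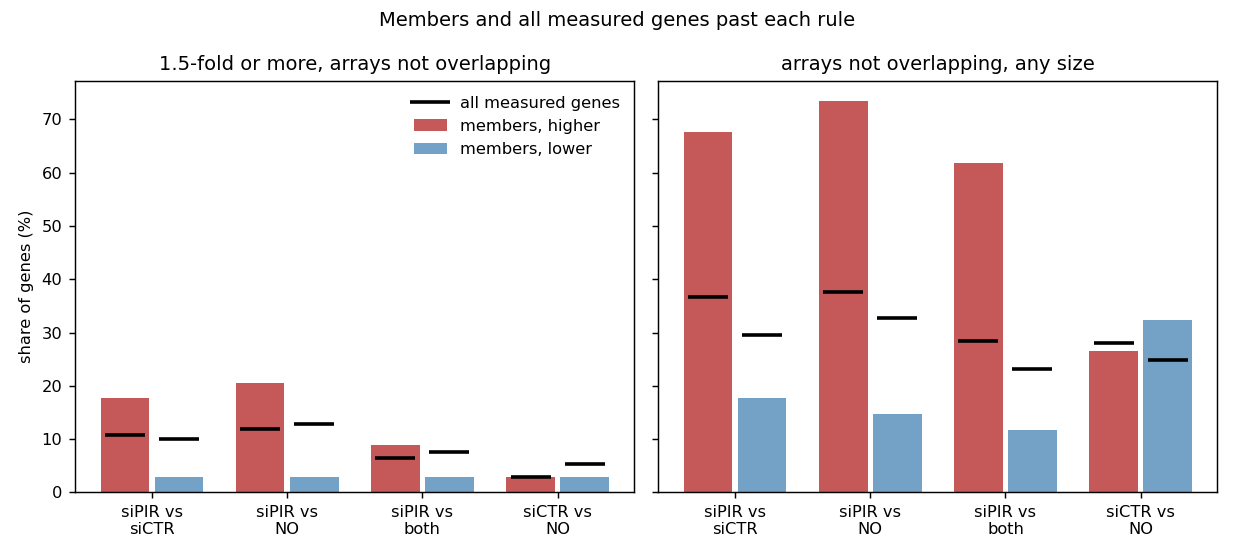
Share of the 34 measured members (bars, in percent) that were higher or lower in the first pool named, at 1.5-fold and at any size with arrays not overlapping, beside the share of all 13071 measured genes (black lines). With siPIR above both controls the bar stands for 21 members and the line at 28.4%.

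The regulators themselves differed little on their brightest probe sets. NFE2L2 had signals of 9195 and 8798 in siPIR, 9188 and 9188 in siCTR, and 9545 and 9831 in NO. Its difference was -0.03 from siCTR (-0.06 to 0.00), with arrays that overlapped, and -0.11 from NO. A dimmer measured probe set of NFE2L2 gave 0.13 and -0.36, and the mean over its probe sets differed from NO by -0.52. KEAP1, the adaptor that directs NRF2 to degradation, had 1605 and 1443 in siPIR, 1437 and 1121 in siCTR, and 1313 and 1233 in NO. Both siPIR arrays lay above the control arrays, by 0.26 from each control, but in siCTR the lowest pair of arrays differed by only 0.01.

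Glutathione supply was uneven. GSR, the reductase that restores glutathione, stood highest, with 1514 and 1403 in siPIR, 1145 and 956 in siCTR, and 987 and 1088 in NO. That is a difference of 0.48 (0.29 to 0.66) and 0.49 (0.37 to 0.61), with no overlap, and its other measured probe set gave 0.56 and 0.38. SLC7A11, the cystine importer, differed by 0.25 and 0.21, and its other 2 measured probe sets by 0.07 to 0.77. The subunits of glutamate-cysteine ligase, the first enzyme of glutathione synthesis, went opposite ways. The modifier GCLM was 0.29 and 0.15 higher, and the catalytic GCLC differed by -0.16 and -0.31, with arrays not overlapping in any of these. For both genes another measured probe set had the opposite sign, so neither direction is settled.

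Among the thioredoxin genes PRDX1, a peroxiredoxin that reduces peroxides, moved most. Its signals were 3122 and 3013 in siPIR, 2012 and 1990.0 in siCTR, and 2069 and 2076 in NO. The siPIR arrays were well clear of the rest, at 0.61 (0.58 to 0.65) and 0.56 (0.54 to 0.59), or 1.53-fold and 1.48-fold. SRXN1, the sulfiredoxin that repairs over-oxidised peroxiredoxins, differed by 0.22 and 0.53, and also by 0.31 between siCTR and NO. TXNRD1, thioredoxin reductase, was close in all pools (0.13 and 0.06). TXN, thioredoxin, had 10343 and 10889.9 in siPIR, 11069 and 11205 in siCTR, and 12538 and 12955 in NO. It was thus lowest in siPIR and highest in NO, with differences of -0.07 and -0.26. Its other measured probe set, a far dimmer one, differed by -0.61 and -0.87. PRDX6 differed by 0.08 and 0.14, and its other probe set by -0.22 and -0.27.

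The members listed under NADPH supply (ME1, PGD, TALDO1 and TKT) were at or above both controls on their brightest probe sets. TALDO1 and TKT do not themselves make NADPH. The 5 other NADPH genes that were measured had medians of -0.12 from siCTR and -0.17 from NO, with 2 and 1 positive. ME1, malic enzyme, had 8666 and 8750.3 in siPIR, 6667 and 6699 in siCTR, and 5399.9 and 5243 in NO. The 3 pools followed one another without overlap, by 0.38 (0.37 to 0.39) from siCTR, 0.71 (0.68 to 0.74) from NO, and 0.33 between the controls. The second measured probe set of ME1 gave only 0.12 and 0.16. PGD of the pentose phosphate pathway differed by 0.30 and 0.16 (its other measured probe set by 0.60 and -0.70), and TALDO1, transaldolase, by 0.21 and 0.21. TKT, transketolase, differed by 0.00 and 0.16, and its 3 measured probe sets ran from -0.54 to 0.23 against siCTR.

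Haem oxygenase HMOX1, often the most inducible NRF2 target, did not separate siPIR from siCTR. Its signals were 346 and 195 in siPIR, 255 and 273 in siCTR, and 138 and 156 in NO. The siPIR arrays straddle those of siCTR, and both siRNA pools lie above NO, by 0.80 (0.31 to 1.29) and 0.82 (0.69 to 0.96). NQO1, the quinone reductase used as a marker of NRF2 activity, had 26649.8 and 26214 in siPIR, 22262 and 22779 in siCTR, and 24297 and 25390.3 in NO. It was 0.23 above siCTR (0.20 to 0.26) and 0.09 above NO, and its other 2 probe sets gave 0.20 and 0.23 against siCTR and 0.00 and 0.01 against NO. BLVRB and BLVRA reduce biliverdin. BLVRB differed by 0.42 and 0.35, and BLVRA by 0.06 and 0.36. Other measured probe sets of BLVRA gave 0.16, -0.18 and -0.44 against siCTR and, in the same order, 0.37, -0.19 and -0.18 against NO.

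Enzymes that act on carbonyls, epoxides and glutathione conjugates held the largest differences of the bright members, those of GSTM3 and EPHX1. GSTM3, a glutathione transferase, had signals of 18049.7 and 16328 in siPIR, 9306 and 9671 in siCTR, and 8644 and 9477 in NO. The siPIR arrays stood far above the rest, by 0.86 (0.76 to 0.96) and 0.92 (0.78 to 1.06), or 1.81-fold and 1.90-fold. A dimmer probe set of GSTM3 gave 0.90 from siCTR and 0.22 from NO. Its main probe set is marked as binding several transcripts, and the GSTM genes are close paralogs, so the share of GSTM3 in its signal is uncertain.

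EPHX1, microsomal epoxide hydrolase, had 2559 and 2398 in siPIR, 1512 and 1421 in siCTR, and 1421 and 1401 in NO. Its differences were 0.75 (0.66 to 0.85) and 0.81 (0.75 to 0.87), or 1.69-fold and 1.75-fold, while the controls differed by 0.05. AKR1C3, an aldo-keto reductase of steroids and prostaglandins, had 806 and 848 in siPIR, 543 and 535 in siCTR, and 491 and 479 in NO. It was higher by 0.61 (0.56 to 0.66) and 0.76 (0.71 to 0.82). AKR1C1 differed by 0.56 and 0.44, on a probe set that may also bind its close paralogs. GSTP1, the bright glutathione transferase whose promoter is shown above, differed by 0.27 and 0.18. MGST1, a membrane-bound transferase, differed by -0.45 and -0.42, overlapped the NO arrays, and had another measured probe set of the opposite sign.

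AKR1B10, an aldo-keto reductase of retinal and lipid aldehydes, was called but dim. Its signals were 70.5 and 105 in siPIR, 10.6 and 40.3 in siCTR, and 54.7 and 86.4 in NO. The siPIR and NO arrays overlap, and it is siCTR that stands low. The difference of 1.76 from siCTR (0.73 to 2.79) thus comes with 0.30 from NO and -1.46 between the controls, where AKR1B10 was called lower (2.47% of measured genes were). Without siCTR replicate 1 the difference from siCTR was 1.004, at the edge of 2-fold, and that between the controls was -0.70, under it. Without siCTR replicate 2 the difference from siCTR was 2.52.

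Of the export pumps, ABCC2 differed by 0.42 and 0.76, with signals of 425 and 471 in siPIR, 399.6 and 276 in siCTR, and 288 and 238 in NO. The arrays did not overlap, but the difference from siCTR ran from 0.09 to 0.76 over the array pairs, and was 0.16 without siCTR replicate 2 and 0.69 without siCTR replicate 1. ABCC1 differed by -0.22 and -0.09, and its other probe set by 0.40 and 0.37. ABCC3, the member that was not measured, had 12.8 and 46.2, 27.8 and 61.6, and 55.6 and 19.4, so its arrays overlapped throughout. OSGIN1, an oxidative stress gene that restrains growth, had 160.0 and 216 in siPIR, 176 and 82.9 in siCTR, and 119 and 107 in NO. It was 0.70 above NO and overlapped siCTR.

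The enzymes that remove peroxide and superoxide split in direction. GPX1, a glutathione peroxidase, had 19443 and 18787 in siPIR, 12051 and 12213 in siCTR, and 12788 and 13385 in NO. Both siPIR arrays were above all others, by 0.66 (0.62 to 0.69) and 0.55 (0.49 to 0.60). CAT, catalase, which breaks down hydrogen peroxide in peroxisomes, ran the other way. Its signals were 3696 and 3362 in siPIR, 5130.1 and 5251 in siCTR, and 4856 and 4365 in NO, a difference of -0.56 (-0.64 to -0.47) and -0.38 (-0.53 to -0.24). A second measured probe set of CAT gave -0.45 and -0.31, but the mean over all its probe sets, dim ones included, differed from siCTR by 0.13. GPX4, which reduces lipid peroxides, differed by 0.17 and 0.21, and SOD1, the cytosolic superoxide dismutase, by 0.12 and 0.18.

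SOD2, the mitochondrial superoxide dismutase and an NF-kB target, had the largest difference from NO of the 34 members. Its signals were 104 and 49.9 in siPIR, 207 and 207 in siCTR, and 298 and 326 in NO. The 3 pools did not overlap, and the differences were -1.45 (-1.94 to -0.95) from siCTR and -2.03 (-2.58 to -1.47) from NO, or 2.73-fold and 4.07-fold lower. Without siPIR replicate 2 the difference from siCTR was -0.95, under 2-fold. The only probe set annotated with SOD2 alone is dim. Another 3 measured probe sets are annotated with SOD2 and SOD2-OT1 together, and so were not counted as SOD2. Of these, the first had 225 and 285 in siPIR, 629 and 662 in siCTR, and 803 and 716 in NO, and differed by -1.33 and -1.56. The next differed by -0.39 and -0.80. The last had 771 and 708 in siPIR, 779.5 and 733 in siCTR, and 650.5 and 698 in NO. It overlapped siCTR and differed by -0.03 and 0.13. Its mean signal of 723 was the highest of these, against 553 and 579, and against 199 for the probe set of SOD2 alone. Against NO that last probe set had siPIR arrays above both NO arrays (0.02 to 0.24). They thus give neither a single size nor a single direction.

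**Figure D3:**
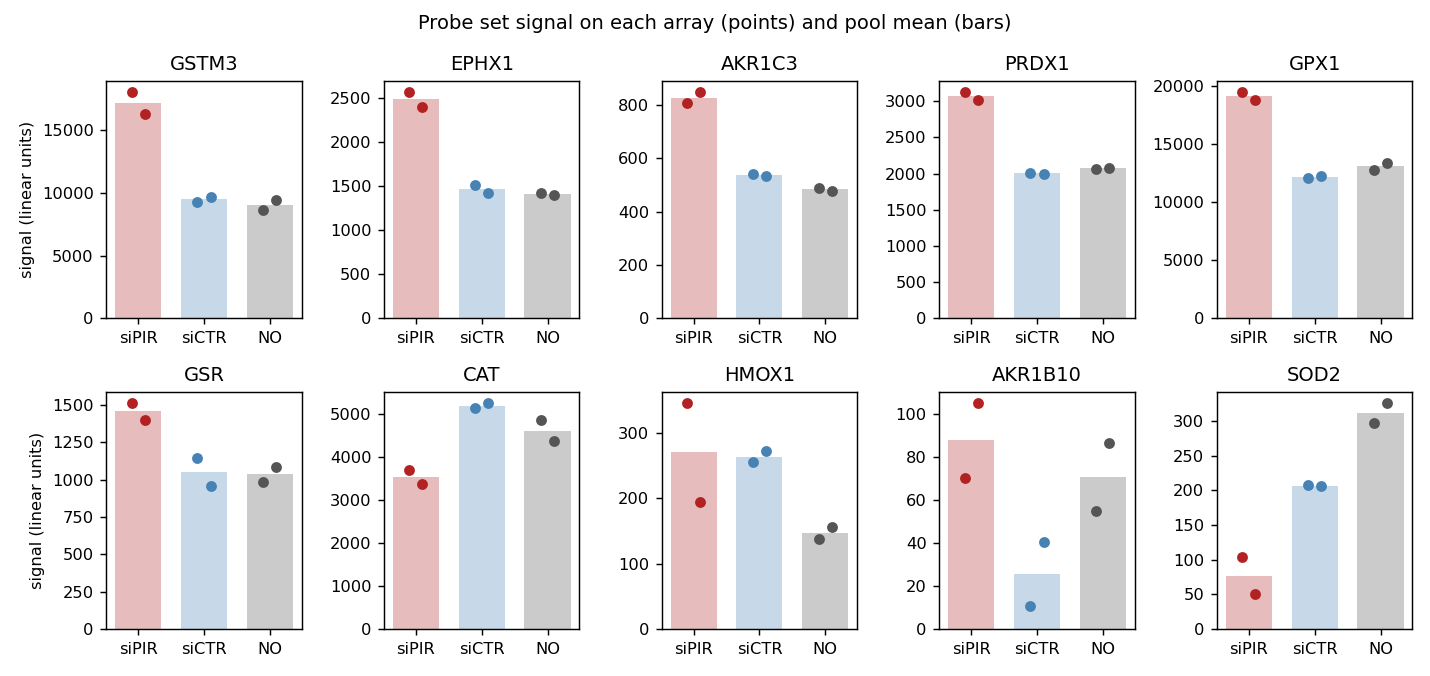
Probe set signal in linear units on each array (points) with the pool mean (bars) for 10 members, in siPIR, siCTR and NO. GSTM3, EPHX1, AKR1C3, PRDX1, GPX1 and GSR have both siPIR points above all control points, CAT and SOD2 both below, HMOX1 is low in NO, and AKR1B10 is low in siCTR.

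Other probe sets of the same genes gave a check that the choice of the brightest did not use. Of the members, 19 had 2 or more probe sets, and 17 had another that was measured, 24 probe sets in all. In each comparison, 14 of the 24 had the sign of the brightest one and 10 the opposite sign. The same count was not made over all measured genes, so these counts have no share to be read against. The genes with an opposite sign were ABCC1, BLVRA, GCLC, GCLM, MGST1, PRDX6 and TKT in both, with NFE2L2 against siCTR and PGD against NO. The second probe sets of GSR, CAT, AKR1C1, ME1, SLC7A11 and GSTM3 kept the sign. EPHX1, AKR1C3, PRDX1 and GPX1 had 1 probe set each, so no such check was to be had for them.

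**Figure D4:**
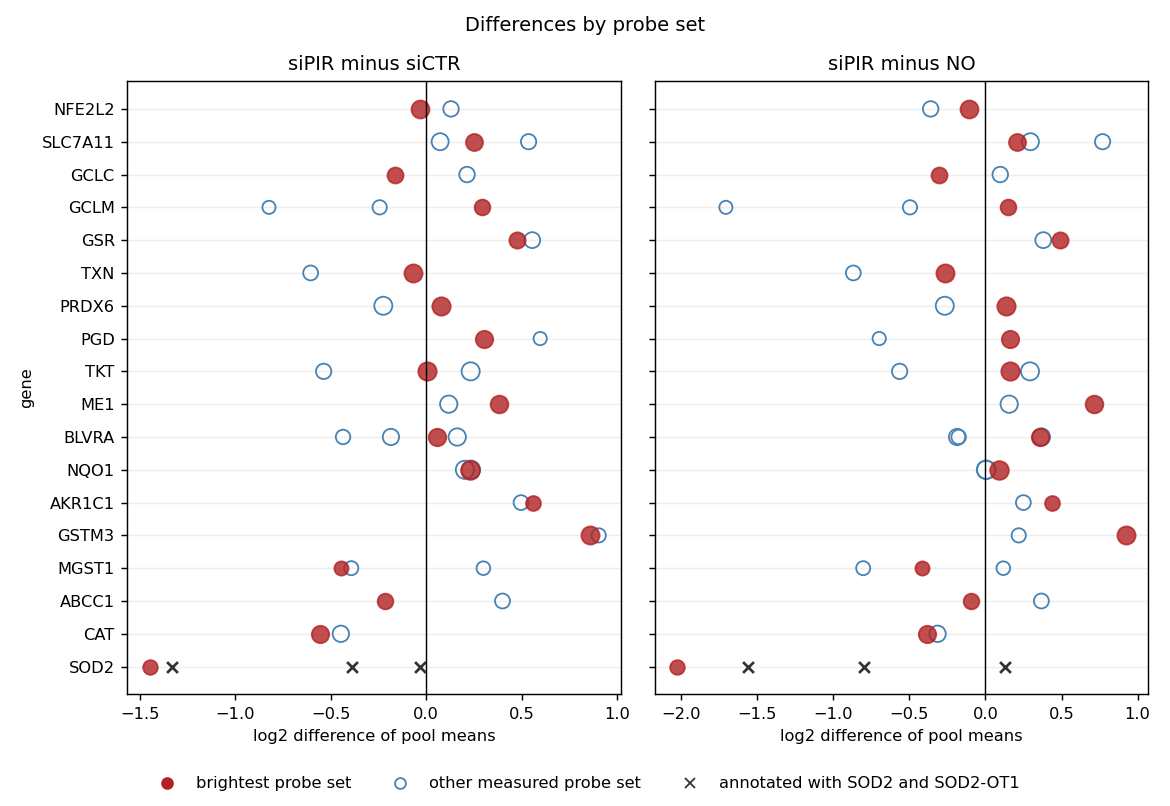
Log2 difference of siPIR from siCTR and from NO by probe set, for members with more than 1 measured probe set and for SOD2. Filled points are the brightest probe set, open points the others (larger points are brighter), and crosses the measured probe sets annotated with SOD2 and SOD2-OT1 together. GSR, CAT and GSTM3 keep 1 sign, and GCLC, GCLM and ABCC1 lie on both sides of 0.

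The pools were also set against each other in limma, which fitted siPIR against siCTR and NO as 2 samples of 1 control arm, with 1 residual degree of freedom. Over the 34 measured members 0 passed an adjusted p of 0.05, as did 0% of all measured genes, PIR included (limma adjusted p 0.141). At an unadjusted p under 0.05 there were 8 members, where 21% of measured genes passed. The outcome depended on the dim genes. When the same limma fit was restricted to the 8272 bright genes, 7 of 27 members passed as higher, where 12.4% of bright genes did, and 0 as lower, where 13% did. These were GSTM3 (limma adjusted p 0.0023), EPHX1 (0.0045), AKR1C3 (0.010), GPX1 (0.017), PRDX1 (0.018), GSR (0.041) and ME1 (0.044). CAT was next, at -0.47 with a limma adjusted p of 0.053. The fit takes the difference between 2 kinds of control as the spread, so its p-values are not a measure of variation between cultures.

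Other genes of the pathway, a list of 78 of which 66 were measured, had medians of 0.07 against siCTR and 0.03 against NO. Against siCTR 1 was called higher and 0 lower, where 3.75% and 4.26% of all measured genes were. Against NO 3 were higher and 1 lower, where 3.67% and 5.48% were. SESN2, a sestrin that answers to p53 and to nutrient and oxidative stress, was called against both (1.14 and 1.70). NFE2L1, the relative of NFE2L2 that controls proteasome genes, was called against NO (1.30) and was 0.87 above siCTR. Its signals were 9717 and 9354 in siPIR, 5412 and 5033 in siCTR, and 3715 and 4027 in NO, so the 3 pools did not overlap. Its probe set may bind other transcripts.

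CHAC1, which degrades glutathione, was called above NO in both siRNA pools (1.89 and 1.81), with NO signals of only 47.1 and 5.9. GLRX, glutaredoxin, was higher than both controls by 0.72 and 0.69, the third after SESN2 and NFE2L1 when genes are ordered by the smaller of their 2 differences. Single differences larger than those of GLRX were seen for SOD3 against siCTR (0.87) and for SESN1 (0.91) and TXNIP (0.75) against NO. SOD3 was dim and its arrays overlapped, with 109 and 93.3 in siPIR and 17.9 and 139 in siCTR. On the lower side stood UGDH, which supplies glucuronic acid for conjugation (-0.67 and -1.04, called against NO), MAFF, a small MAF partner of NRF2 (-0.76 and -0.67), and NNT, a mitochondrial source of NADPH (-0.63 and -0.77). No others of the 66 measured genes of this list were called between siPIR and a control.

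In the comparison of siCTR with NO, the non-targeting duplexes and any variation between the cultures and extractions of 1 pool and another cannot be told apart. AKR1B10 was called lower, and 0 members were called higher (1.04% of measured genes). Among bright genes 0 members were called either way (0.0242% higher and 0.0363% lower). At 1.5-fold HMOX1 was the only member higher (2.86%) and AKR1B10 the only one lower (5.38%). Without regard to size 9 members were higher and 11 lower, where 28.1% and 24.9% of measured genes were. So the members were spread to both sides in this pair. For HMOX1, SRXN1 and ME1 the siCTR pool stood 0.82, 0.31 and 0.33 above NO on their brightest probe sets. The second measured probe set of ME1 gave 0.04 here, and the mean over its probe sets -0.28. By arithmetic, on the brightest probe sets of these 3 genes the difference of siPIR from NO is larger than that from siCTR by the same amounts.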

How the data were processed

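Per the submitters' processing notes the deposited values come from GCOS; its version and settings were not given in the sources used here. The deposited unit is a linear probe set intensity, and the mean of each array without the lowest and highest 2% of values was 500.1, so differences in total RNA were removed. Each value was taken as log2(signal + 5.4), where 5.4 is the 10th percentile over the arrays. Gene names came from the platform annotation (41097 of 54675 probe sets with 1 gene), updated through RefSeq. The 2 arrays of a pool were averaged. No intervals or p-values come from arrays of 1 pool, and limma 3.58.1 in R 4.3.3 was run on the 3 pool means with Benjamini-Hochberg adjustment over all measured genes. Calls and fits were also run on simulated arrays that held only the noise of repeat hybridisations. The changes planted there were larger than most seen in the members. Those runs therefore do not bear on small differences or on variation between cultures. All 35 members were named, with the other pathway genes that were called or were the 3 most different from both controls in each direction. The members and lists were chosen with earlier results of these data known. Alternatives covered the pseudocount, filter, probe set choice, scaling, call rule and each array left out. A genome was not used, and coordinates come from the RefSeq promoter table.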

Additional observations from a re-analysis of the deposited data

How the results depend on the processing

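No paired analysis was possible because the 2 arrays of a group are repeat hybridisations of 1 pool, so the groups share no sample number. The members' median difference from siCTR was 0.23 with the filter at the 75th percentile and 0.23 with no filter, 0.21 as the mean over probe sets, 0.25 after quantile normalization, 0.26 after median centring, and 0.19 to 0.25 without an array. That from NO was 0.19 after quantile normalization and 0.19 to 0.22 without an array. Between the controls it was -0.083 as the mean over probe sets and -0.018 to 0.016 without an array. Over all genes kept under the same alternatives the median was 0.02 to 0.07 from siCTR. From NO that median was 0.05 after quantile normalization and 0.02 to 0.05 without an array. Between the controls it was -0.039 as the mean over probe sets and -0.001 to 0.0205 without an array. With the filter at the 75th percentile 0 members were called in any comparison. Without _x_at and _s_at probe sets 0 were higher than siCTR and 0 lower in siCTR than in NO, as the probe set of AKR1B10 was left out. Of the 10247 measured genes left there, 417 and 301 were. At 1.5-fold 6 were higher than siCTR, 7 higher than NO, 3 higher than both, and 1 higher in siCTR than in NO. Without an array the counts against siCTR were 1 to 2 higher and 0 to 1 lower. Of 13117 to 13483 measured genes, 508 to 808 were higher and 568 to 1018 lower. Against NO 0 to 1 members were higher and 1 to 1 lower, where 481 to 708 and 719 to 985 measured genes were. Against both, 0 to 1 members were lower (440 to 558 measured genes). In siCTR against NO, 0 to 1 members were lower (330 to 614 measured genes). By limma 7 members passed with the filter at the 75th percentile and 0 under each of the other alternatives. Of 35 members, 17 were above both controls, and 2 (SOD2 and TXN) below, under each alternative that gave them a value. GPX1 and TALDO1 had none without _x_at and _s_at probe sets. For the 16 members with 1 probe set, SOD2 among them, the choice of probe set could not change the sign. Of the 17 above both controls, only GSR, GSTM3, ME1 and SLC7A11 had more than 1 probe set. The share of all genes that kept their sign was not computed. The probe sets annotated with SOD2 and SOD2-OT1 together were not among the alternatives. No called difference changed sign. As the mean over probe sets GCLM was below both controls, by -0.26 and -0.68. Signals near the pseudocount limit AKR1B10 and ABCC3.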

Other observations

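Other glutathione transferases of the mu class, the class of GSTM3, were read too. GSTM1 differed by 0.58 from siCTR and 0.68 from NO, GSTM2 by 0.61 and 0.45, and GSTM4 by 0.22 and 0.32, each with both siPIR arrays above all control arrays. All 3 probe sets may bind other transcripts of the class. GSTM5, which was dim, differed by 0.28 and -0.46. These genes were picked after their values were seen. They belong to a group of 17 measured conjugation and carbonyl genes outside the members. Of the 17, 7 were higher and 6 lower than siCTR without overlap, where 36.6% and 29.5% of measured genes were. Against NO there were 5 and 6, where 37.7% and 32.7% were. Among the lower ones were transferases outside the mu class, GSTA4 (-0.49 and -0.30), GSTZ1 (-0.24 and -0.11) and MGST2 (-0.21 and -0.30). A probe set annotated with NFE2L2 and CSNK2A1 together differed by -0.57 and -0.75.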
